A study of Mus musculus with 4 samples.

Results

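Myeloid granule and monocyte genes were followed in Early T lineage progenitors (ETP) of old and young mice as a group of 10 genes, picked by symbol from a named list: Mpo, Elane, Prtn3, Ctsg, Cpa3, Lyz2, Csf1r, Csf2rb, Cebpa and Cd68. They are 10 of the 23361 genes with values, and each symbol had a row of its own. RNA was measured by paired-end sequencing in 4 libraries, 2 from old females (72 weeks) and 2 from young females (4 to 6 weeks) of the C57BL6 strain, with no other treatment or allele named. ETP were sorted from thymus as cells with CD44 and CD117 (the Kit receptor), without CD25 and without lineage antigens, and the lineage antibodies included Gr-1 and CD11b, which mark granulocytes and monocytes. The comparison asks what differs with age in the first T lineage cells of the thymus. Separate animals are not stated for the libraries of an age, and the p-values therefore speak to library spread alone, part or all of which may be technical.

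ETP descend from blood-borne progenitors that still carry some myeloid potential, and they lose it as Notch signalling commits them to the T lineage. Neutrophil precursors make their azurophil (primary) granules first, filled with myeloperoxidase (Mpo) and the serine proteases neutrophil elastase (Elane), proteinase 3 (Prtn3) and cathepsin G (Ctsg), and they make the secondary and tertiary granule proteins later. Monocytes and macrophages carry the receptor for colony stimulating factor 1 (Csf1r), the lysosomal glycoprotein Cd68 and lysozyme (Lyz2), while carboxypeptidase A3 (Cpa3) is best known from mast cells and is also transcribed in early progenitors. Csf2rb encodes the common beta chain of the GM-CSF, IL-3 and IL-5 receptors, and Cebpa encodes the transcription factor C/EBP alpha, which drives granulocyte and monocyte fate.

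Total depth was 11816478 and 4839341 fragments in old and 16658864 and 6414915 fragments in young ETP, so the replicates numbered 1 were sequenced more deeply than those numbered 2 at both ages. Levels between libraries are given as normalized CPM (fragments scaled to a common depth with edgeR's TMM factors), on which 3 fragments, the limit a count of 0 allows, were worth 0.249 and 0.654 CPM in old and 0.176 and 0.481 CPM in young libraries. Levels between genes are given as the deposited FPKM (fragments scaled by transcript length and depth), which also followed depth, with sums of 230420 and 122998 in old and 281542 and 135313 in young. The genes that the gate selects were abundant in the RNA. Kit was at 936 and 945 CPM in old and 764 and 1096 CPM in young, and Cd44 at 636 and 519 CPM in old and 496 and 517 CPM in young. Genes of excluded antigens, named after their values were seen, were not absent. Il2ra (CD25) was at 31.8 and 22.9 CPM in old and 26.3 and 39.9 CPM in young. Cd3e was at 11.2 and 36.2 CPM in old and 3.34 and 2.88 CPM in young. Cd8a was at 7.15 and 22.7 CPM in old and 1.64 and 1.92 CPM in young. Klrb1c (NK-1.1) was at 5.32 and 14.4 CPM in old and 0.70 and 1.44 CPM in young. Itgam, which encodes CD11b, was still at 50.2 and 67.8 CPM in old and 51.1 and 60.2 CPM in young ETP. Ptprc encodes the pan-leukocyte CD45, of which only the CD45R (B220) form was among the excluded antigens. Ptprc was at 515 and 953 CPM in old and 661 and 784 CPM in young.

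On the FPKM scale the 10 genes spanned a wide range of levels. Mpo was highest of the 10 in every library, at 184 and 44.9 FPKM in old and 352 and 134 FPKM in young, followed by Lyz2 at 79.6 and 39.9 FPKM in old and 74.4 and 37.5 FPKM in young. Cpa3 was at 36.0 and 31.6 FPKM in old and 35.5 and 34.2 FPKM in young, and it changed places with Elane in young replicate 1 only. The middle ranks were not fixed: Elane, Ctsg and Prtn3 stood above Csf1r and Csf2rb in both replicates 1, and Prtn3 was below both receptors in both replicates 2. Cebpa was lowest of the 10 in all 4 libraries, at 0.58 and 0.22 FPKM in old and 0.25 and 0.25 FPKM in young. Between neighbours in this order, Elane, Ctsg and Prtn3 differed by less than the spread of each between libraries.

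**Figure D1:**
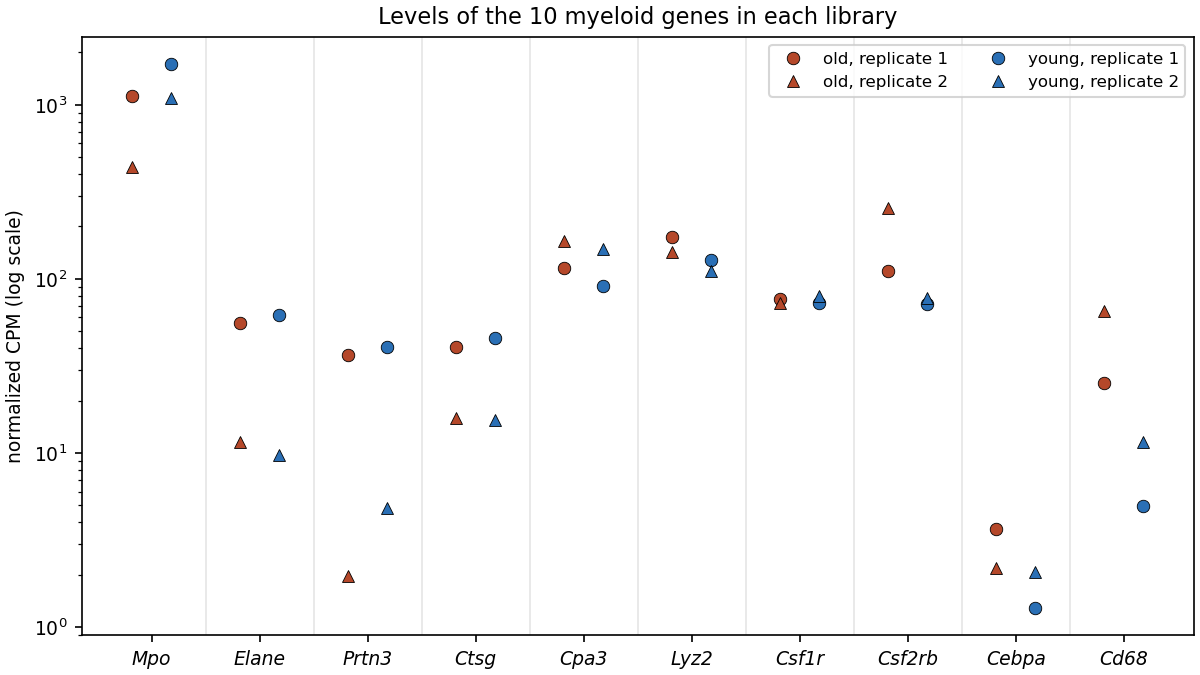
Normalized CPM (log scale) of the 10 myeloid genes in the 4 libraries, with old left of young for each gene and replicates 1 and 2 as circles and triangles. Mpo is highest, both Cd68 values of old ETP lie above both of young ETP, and Elane, Prtn3 and Ctsg split by replicate and not by age.

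Of the 10 genes, 9 were tested for age and 1, Cebpa, was below the filter on low values (FPKM of 1 or more in 2 or more of the libraries). None of the 9 passed edgeR's quasi-likelihood test at an adjusted p under 0.05, and across the 10080 tested genes the share called was 0.0%, with a smallest adjusted p of 0.325. At an unadjusted p under 0.05, edgeR placed 469 genes (4.65%) higher and 92 lower in old ETP, among them Cd68 and Csf2rb on the higher side. DESeq2, run as an alternative, called 210 genes (2.08%) higher and 15 lower, with Cd68 the only one of the 9. Without regard to a test, both old libraries were above both young libraries for 3 of the 9 (Lyz2, Csf2rb and Cd68), against 16.1% of all tested genes, and both old were below both young for 0 of the 9, against 15.5%. For one gene in 2 against 2 libraries, an exact two-sided permutation p cannot go below 0.33. The median log2 fold change of all tested genes was -0.03 by edgeR and -0.27 by limma on log2(FPKM + 1), so values on the FPKM scale sit lower. In RNA from many cells at once, a difference in the number of cells of a type and a difference in RNA per cell cannot be told apart.

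**Figure D2:**
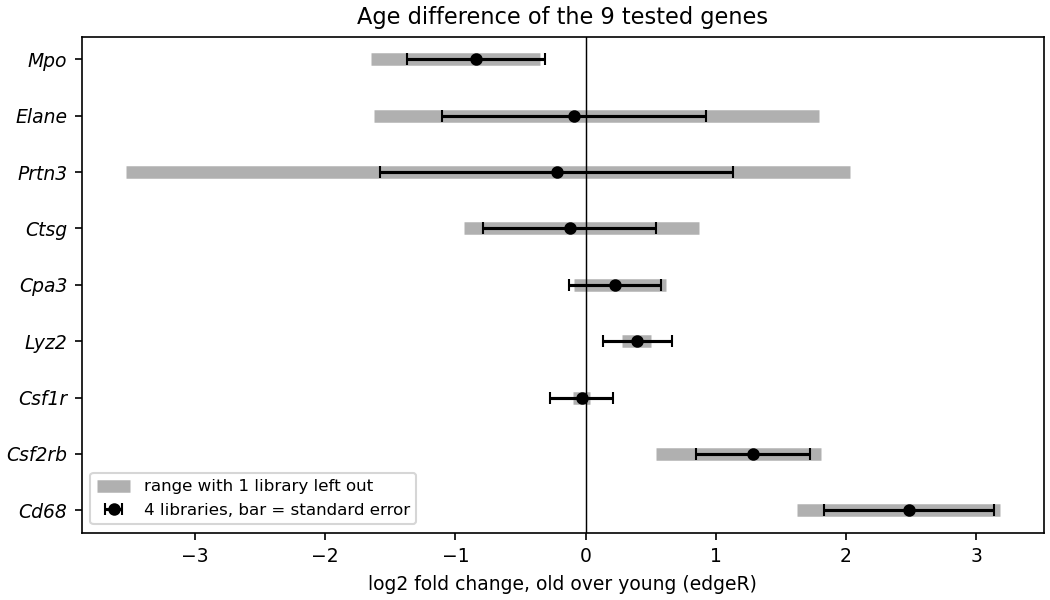
The edgeR log2 fold change, old over young, of the 9 tested genes (point, bar = standard error) and the range of the same value when each library in turn was left out (grey). Only Mpo, Lyz2, Csf2rb and Cd68 keep one sign throughout, and the grey range of Prtn3 runs between -3.53 and 2.03.

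None of the azurophil granule genes passed edgeR's test between the ages, and the spread between libraries of an age was wide. Mpo, the heme enzyme that makes hypochlorous acid, had 1126 and 437 CPM in old ETP and 1716 and 1092 CPM in young ETP. The ages overlapped, since old replicate 1 was above young replicate 2, although each old library was below the young library of the same number. Its log2 fold change, old over young, was -0.84 (SE 0.53), with an edgeR adjusted p of 0.999.

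The 3 serine proteases of the same granule followed the replicate number at both ages. Elane had 55.8 and 11.6 CPM in old and 61.9 and 9.77 CPM in young ETP. Prtn3 had 36.8 and 1.96 CPM in old and 40.8 and 4.81 CPM in young, which in old replicate 2 was only 9 fragments and in young replicate 2 was 30 fragments. Ctsg had 40.5 and 15.9 CPM in old and 45.9 and 15.5 CPM in young. For each of them replicate 1 was high and replicate 2 low at either age, and the ages overlapped. The log2 fold changes, old over young, were -0.09 (SE 1.01) for Elane, -0.22 (SE 1.36) for Prtn3 and -0.12 (SE 0.67) for Ctsg, each with an edgeR adjusted p of 0.999. Without old replicate 2 the signs turned (0.58 for Elane, 0.62 for Prtn3 and 0.35 for Ctsg), and likewise without young replicate 1 (1.80, 2.03 and 0.87), so no direction with age is given for them.

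The size of the split between replicates was large beside that of most genes. Replicate 1 exceeded replicate 2 by 4.83 times in old and 6.34 times in young for Elane, and by 18.7 times in old and 8.49 times in young for Prtn3. For Ctsg the ratios were 2.55 in old and 2.96 in young, and for Mpo 2.58 in old and 1.57 in young. By a rule chosen after these values were seen, a gene with replicate 1 at least 2 times replicate 2 at both ages, 3 of the 9 tested genes qualified (Elane, Prtn3 and Ctsg), against 244 of all tested genes (2.42%). Csf1r, at ratios of 1.05 in old and 0.92 in young, and Lyz2, at 1.22 in old and 1.15 in young, differed little between replicates. Cd68 ran the other way, with ratios of 0.38 in old and 0.43 in young. The labels do not tie equal replicate numbers across the ages. Depth differed between the replicates in the same order, and its part in the split was not tested.

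**Figure D3:**
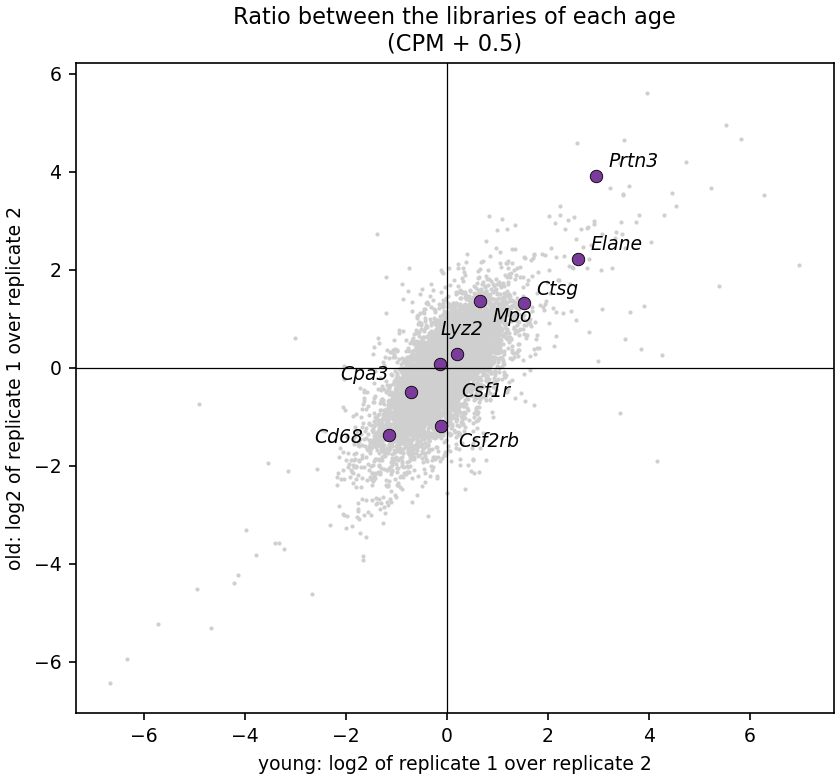
Log2 ratio of replicate 1 over replicate 2, with 0.5 added to the CPM, in old (vertical) and young ETP (horizontal) for all tested genes (grey) and the 9 tested myeloid genes (purple). Elane, Prtn3 and Ctsg lie far to the upper right, Cd68 lies at the lower left, and Csf1r and Lyz2 lie near the centre.

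Neither did the 3 proteases keep one ratio to Mpo. Per 1000 Mpo fragments, Elane had 49.5 (95% exact Clopper-Pearson interval 45.8 to 53.5) and 26.4 (19.7 to 34.7) in old and 36.1 (33.9 to 38.4) and 8.94 (6.83 to 11.5) in young. Prtn3 had 32.6 (29.6 to 35.9) and 4.48 (2.05 to 8.53) in old and 23.8 (22.0 to 25.6) and 4.4 (2.97 to 6.29) in young. Ctsg had 36.0 (32.8 to 39.4) and 36.4 (28.4 to 46.0) in old and 26.8 (24.9 to 28.7) and 14.2 (11.5 to 17.4) in young. The Ctsg intervals of both old libraries overlapped, while for Elane and Prtn3 the interval of replicate 2 lay below that of replicate 1 at each age. These intervals cover counting error only, since PCR duplicates are not independent molecules.

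The promoters of these 4 genes are shown because each gene was higher in replicate 1 at both ages, Mpo by only 1.57 times in young. Sequences are from RefSeq (GRCm38.p6) and cover 250 bases before to 50 after the start site, 5′ to 3′ on the gene's strand. Capitals mark matches, on either strand, to the PU.1 box GAGGAAG, the Myb site TAACNG, the Runx site TGTGGT and the C/EBP letters TTGCNNAA. None of these motifs overlapped another here.
Mpo: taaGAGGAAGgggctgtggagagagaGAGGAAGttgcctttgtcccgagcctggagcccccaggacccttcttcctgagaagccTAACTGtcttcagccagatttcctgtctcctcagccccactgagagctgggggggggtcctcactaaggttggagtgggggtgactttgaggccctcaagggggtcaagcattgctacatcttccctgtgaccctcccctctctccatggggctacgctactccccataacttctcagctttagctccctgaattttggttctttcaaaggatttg
Elane: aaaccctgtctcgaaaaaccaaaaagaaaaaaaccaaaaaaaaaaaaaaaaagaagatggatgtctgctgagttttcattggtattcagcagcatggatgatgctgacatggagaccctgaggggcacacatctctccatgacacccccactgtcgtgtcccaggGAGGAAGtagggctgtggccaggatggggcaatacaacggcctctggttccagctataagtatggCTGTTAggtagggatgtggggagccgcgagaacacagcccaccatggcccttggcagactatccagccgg
Prtn3: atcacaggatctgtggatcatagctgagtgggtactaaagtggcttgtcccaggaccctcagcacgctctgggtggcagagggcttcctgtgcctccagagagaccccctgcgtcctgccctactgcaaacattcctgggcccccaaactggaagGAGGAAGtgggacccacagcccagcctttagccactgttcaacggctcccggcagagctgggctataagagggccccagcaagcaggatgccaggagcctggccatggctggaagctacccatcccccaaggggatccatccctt
Ctsg: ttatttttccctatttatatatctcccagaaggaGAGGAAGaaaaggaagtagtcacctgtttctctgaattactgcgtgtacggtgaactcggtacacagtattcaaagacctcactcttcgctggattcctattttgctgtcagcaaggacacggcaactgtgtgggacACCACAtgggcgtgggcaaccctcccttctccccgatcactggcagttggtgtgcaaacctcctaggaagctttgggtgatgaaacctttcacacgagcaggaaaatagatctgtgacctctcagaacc
Cd68: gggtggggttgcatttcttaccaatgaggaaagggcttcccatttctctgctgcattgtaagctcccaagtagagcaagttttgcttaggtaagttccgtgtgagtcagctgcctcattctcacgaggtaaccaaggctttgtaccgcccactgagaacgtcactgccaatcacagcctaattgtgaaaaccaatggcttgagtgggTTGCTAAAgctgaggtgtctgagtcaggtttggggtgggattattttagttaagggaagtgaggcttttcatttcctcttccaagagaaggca
Cd68, whose levels ran opposite to those of the proteases between replicates, is given for contrast. The Mpo window is chr11:87793534-87793833 (plus strand), the Elane window chr10:79886062-79886361 (plus), the Prtn3 window chr10:79879417-79879716 (plus), the Ctsg window chr14:56102525-56102824 (minus) and the Cd68 window chr11:69666121-69666420 (minus). GAGGAAG occurred in all 4 granule genes, at -247 and -224 in Mpo, -85 in Elane, -95 in Prtn3 and -216 in Ctsg, against 13.6% of the 32851 promoters of the table. It was in none of the windows of Cpa3, Lyz2, Cebpa and Cd68, which complete the 8 members with a promoter in the table. The Myb letters were in Mpo (-166) and Elane (-20), against 23.3% of promoters. The Runx letters were in Ctsg (-79), Cpa3 (-73) and Lyz2 (-66), against 16.8%, and the C/EBP letters in Cd68 (-43), against 10.8%. A match is only a description of the letters.

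Elane and Prtn3 are neighbours on chromosome 10 in GRCm38, at chr10:79886247-79888215 and chr10:79874476-79883174 on the plus strand. The Prtn3 promoter window lies inside this Prtn3 span, so the RefSeq start used for the window is not the GENCODE gene start. The RefSeq starts used for Mpo, Elane and Cd68 also differ from their GENCODE gene starts. Most of the Mpo window lies inside the Mpo span, and all motif offsets count from the RefSeq start. The next gene, Cfd (complement factor D, or adipsin), which belongs to the same cluster of serine protease genes, was at 0 and 0 fragments in old and 1 and 1 in young ETP. Ptbp1, a splicing regulator on the other side, was at 1063 and 793 CPM in old and 1013 and 817 CPM in young, with much closer replicates. Exons of Prtn3 overlap those of Plppr3 on the other strand, and exons of Mpo (chr11:87793581-87804413) overlap Gm11505 on the other strand. Whether counting used strand is not stated, so reads of such pairs may not be told apart.

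Ctsg lies on chromosome 14 (chr14:56099881-56102574, minus strand) among mast cell proteases and granzymes. Mcpt8, a basophil protease, had 2.74 and 4.58 CPM in old and 1.58 and 1.44 CPM in young, while Mcpt2 had 4.16 and 6.97 CPM in old and 8.43 and 2.56 CPM in young. Gzmd and Gzmg were at 0 fragments in all 4 libraries. Neither Mcpt8 nor Mcpt2 was higher in replicate 1 at both ages, as Ctsg was.

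The list of granule genes of neutrophil precursors held 15 genes, of which 14 were tested. In old ETP 4 estimates were higher and 10 lower, the members included, and none passed edgeR's test. The median log2 fold change was -0.12, beside -0.03 over all tested genes. Its most abundant other genes are also made by other blood cells: Srgn (serglycin, the proteoglycan core of granules) was at 560.2 and 356 CPM in old and 523.5 and 465 CPM in young. Nkg7, a granule membrane protein, had 231 and 158 CPM in old and 220.3 and 214 CPM in young. Calr (calreticulin, the chaperone that folds Mpo) had 459.5 and 427 CPM in old and 336 and 248 CPM in young. Serpinb1a, an inhibitor of the granule proteases, had 163 and 116 CPM in old and 237 and 202 CPM in young. Calr stood above and Serpinb1a below young in both old libraries, with log2 fold changes of 0.60 and -0.66 and edgeR adjusted p of 0.999 and 0.981.

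Late granule genes were scarcer. Of the 21 with a row, 8 were tested, 4 with higher and 4 with lower estimates (median 0.14), and none passed edgeR's test. The NADPH oxidase subunits lay above young in both old libraries: Cyba had 40.9 and 29.4 CPM in old and 21.6 and 12.2 CPM in young, Ncf1 135 and 154 CPM in old and 71.5 and 99.3 CPM in young, and Ncf4 44.9 and 52.1 CPM in old and 23.1 and 19.7 CPM in young. Their log2 fold changes, old over young, were 1.05, 0.76 and 1.18, with edgeR adjusted p of 0.887, 0.840 and 0.456. S100a9, a calcium-binding protein of neutrophil cytosol, had 105 and 0 fragments in old and 219 and 0 in young, and its partner S100a8, named after its values were seen, had 64 and 0 in old and 118 and 1 in young. Both were therefore present in replicates 1 alone, apart from 1 fragment. Ms4a3, a membrane protein of granulocyte-monocyte progenitors chosen in the same way, had 105 and 2 fragments in old and 162 and 10 in young. Of late granule genes likewise picked for low values, Ltf, Lcn2, Camp and Ngp had at most 17 fragments in any library, and Retnlg had 0 in all.

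Lysozyme and Cpa3 showed small differences. Lyz2 (chr10:117277331-117282321, minus strand) had 173 and 142 CPM in old and 128 and 111 CPM in young ETP. Both old libraries were above both young ones, by 1.32 times on the means. The log2 fold change, old over young, was 0.40 (SE 0.27), with an edgeR adjusted p of 0.999. Of windows of 100 bases in the Lyz2 transcript, 1.97% occur also in the near copy Lyz1, and Lyz1 was at 2.25 and 13.9 CPM in old and 0.35 and 0.16 CPM in young. How reads that fit both copies were counted is not stated.

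Cpa3 (chr3:20215620-20242181, minus strand) had 116 and 164 CPM in old and 91.1 and 149 CPM in young. The ages overlapped and replicate 2 was the higher one in each. The log2 fold change was 0.23 (SE 0.35), with an edgeR adjusted p of 0.999, and on the log2(FPKM + 1) scale it was -0.05, where the median of all tested genes was -0.27, so that Cpa3 was above the median on both scales. Of 17 mast cell and basophil genes, 5 were tested (3 with higher and 2 with lower estimates in old, median 0.23). Slc18a2, the vesicle monoamine transporter, had 12.1 and 25.1 CPM in old and 15.6 and 25.5 CPM in young, and Mcpt1 had 64 and 97 fragments in old and 144 and 0 in young. Other genes of the list, named after their values were seen, differed in level. The IgE receptor chains were at or near 0, with Fcer1a at 1 and 4 fragments in old and 0 and 0 in young and Ms4a2 at 2 and 2 in old and 9 and 10 in young, and the tryptase gene Tpsab1 was at 0 in all. Hdc, which makes histamine, had 36 and 3 fragments in old and 99 and 10 in young, the chymase gene Cma1 had 22 and 14 in old and 23 and 1 in young, and Gata2, also a progenitor factor, had 88 and 32 in old and 149 and 46 in young.

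Csf2rb and its near copy were among the receptors with the larger estimates in old ETP, and neither passed edgeR's test. Csf2rb (chr15:78325752-78353847, plus strand) had 111 and 255 CPM in old ETP and 71.9 and 77.5 CPM in young ETP. Both old libraries were above both young ones, and old replicate 2 was well above old replicate 1. The log2 fold change, old over young, was 1.29 (SE 0.44), with an unadjusted p of 0.0284 and an adjusted p of 0.755 by edgeR. Csf2rb2, which encodes the mouse beta chain used by IL-3 alone, had 38.7 and 114 CPM in old and 23.3 and 31.4 CPM in young, with a log2 fold change of 1.48 (SE 0.55) and an edgeR adjusted p of 0.831. Of 100-base windows in the Csf2rb transcript, 6.96% occur also in Csf2rb2, so the deposited counts could split reads between them, and the values are not independent. The log2 fold change of Csf2rb was 1.81 without old replicate 1, whereas leaving out old replicate 2 gave 0.55. Fitted without the filter on low values, Csf2rb was called by edgeR (1.27, adjusted p 0.0214). That setting called 474 genes higher and 34 lower in old ETP, against 0 and 0 with the filter.

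Other receptors gave a mixed picture. Of 14 receptor genes, 12 were tested, 9 of them with a higher and 3 with a lower estimate in old (median 0.53), and 0 passed edgeR's test. Kit, the receptor that defines the gate, was given above and overlapped between ages. Ifngr1, a chain of the interferon gamma receptor, had 181 and 236 CPM in old and 114 and 98.2 CPM in young (log2 fold change 0.98, edgeR adjusted p 0.567). Flt3 had 239 and 358 CPM in old and 279 and 243 CPM in young, and Il6st, the shared gp130 chain, had 184 and 253 CPM in old and 229 and 299 CPM in young. The ages overlapped for both.

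Csf1r overlapped between the ages. It had 76.9 and 73.0 CPM in old ETP and 73.2 and 79.9 CPM in young ETP, and the log2 fold change was -0.03 (SE 0.24), with an edgeR adjusted p of 0.999. With 1 library left out the log2 fold change ran between -0.09 and 0.04. Its exons (chr18:61100598-61132149, plus strand) overlap those of Hmgxb3 on the other strand.

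Cd68 had the largest age difference of the 10 genes. Cd68 (chr11:69664213-69666153, minus strand) had 25.3 and 65.8 CPM in old ETP and 4.97 and 11.5 CPM in young ETP, from 304 and 302 fragments in old and 85 and 72 fragments in young. Both old libraries were above both young ones, and within each age replicate 2 was the higher. The means differed by 5.52 times, and the log2 fold change, old over young, was 2.48 (SE 0.65), with an unadjusted p of 0.0104 and an adjusted p of 0.485 by edgeR. DESeq2 called it, at a log2 fold change of 2.50 and an adjusted p of 0.00613. When 1 library was left out the log2 fold change ran between 1.63 and 3.18, and it was 3.07 without old replicate 1. Without the filter on low values edgeR called Cd68 (2.48, adjusted p 5.61e-06). In that setting edgeR called 474 genes higher and 34 lower in old ETP, against 0 and 0 with the filter.

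The conventional dendritic cell markers moved with Cd68. All 18 of them with a row summed to 6858 and 21470 CPM in old and 1245 and 1925 CPM in young, and none was at 0 in every library. Cd74, the invariant chain of MHC class II, was at 2845 and 9057 CPM in old and 229 and 523 CPM in young, and H2-Aa at 1199 and 3731 CPM in old and 101 and 222 CPM in young. Of the 16 tested, 15 estimates were higher and 1 was lower in old, with a median of 3.49, and 0 passed edgeR's test while DESeq2 called 12. Old replicate 2 was highest for this sum as for Cd68, Csf2rb and Ccr2. NK and innate lymphoid markers (15 with a row, none at 0 throughout) summed to 223 and 394 CPM in old and 84.2 and 156 CPM in young, with Ccl5 at 15.2 and 15.9 CPM in old and 2.69 and 3.84 CPM in young, and Klrd1 at 8.4 and 37.5 CPM in old and 6.67 and 15.7 CPM in young. Their part in the Cd68 and Csf2rb values was not tested.

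In no other marker list were both old sums above both young sums. Plasmacytoid dendritic cell markers (10 with a row, Klk1 at 0) summed to 1029 and 797 CPM in old and 1629 and 1719 CPM in young. Its most abundant gene was Dntt, also an early lymphoid gene, at 782 and 397 CPM in old and 1332 and 1271 CPM in young, while Bst2 had 42.3 and 27.0 CPM in old and 38.7 and 19.9 CPM in young. B cell markers (9 with a row) summed to 30.1 and 41.4 CPM in old and 36.6 and 27.7 CPM in young. Cd79b made up most of it, at 23.6 and 24.8 CPM in old and 30.8 and 22.9 CPM in young. Scarcer genes of the list, named after their values were seen, did not all follow the sum. Cd79a had 14 and 20 fragments in old and 4 and 0 in young, and Ms4a1 had 6 and 23 in old and 3 and 0 in young. Ebf1 went the other way, with 0 and 0 fragments in old and 12 and 1 in young.

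Markers of later T cells (13 with a row, Ptcra at 0) summed to 119.5 and 186 CPM in old and 138 and 212 CPM in young. Of these Cd3e had 11.2 and 36.2 CPM in old and 3.34 and 2.88 CPM in young, and Rag2 had 20.9 and 43.6 CPM in old and 47.0 and 96.8 CPM in young. Erythroid markers (10 with a row, Slc4a1 and Hba-a2 among those at 0) summed to 23.6 and 20.3 CPM in old and 21.5 and 22.4 CPM in young, most of it from Hbb-b1 and Hbb-b2. Eosinophil markers (9 with a row, Ear6 at 0) summed to 26.9 and 44.9 CPM in old and 29.4 and 27.1 CPM in young, with Siglec5 between 25.3 and 30.9 CPM in every library and Ear2 at 1.41 and 10.7 CPM in old and 0 and 0 CPM in young. Of the thymic stroma markers, 12 had a row, with Foxn1 and Krt14 at 0. They summed to 165 and 151 CPM in old and 147 and 188 CPM in young, most of it Pecam1. Epcam was at 2.25 and 10.7 CPM in old and 1.17 and 0.96 CPM in young. Cdh5, an endothelial gene named after its values were seen, had 4 and 3 fragments in old and 1 and 1 in young. Chosen in the same way, Col1a1 had 1 and 37 fragments in old and 3 and 52 in young. Likewise Col3a1 had 0 and 23 in old and 0 and 34 in young, so both collagen genes were higher in replicate 2 at each age. None of these sums was higher in replicate 1 at both ages by as much as Elane or Prtn3.

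Among the monocyte and macrophage genes as a list, 14 of 30 were tested, 11 of them with a higher and 3 with a lower estimate in old (median 0.50). None passed edgeR's test, and DESeq2 called Cd68 and Cd36, a scavenger receptor named for that call, which had 27.6 and 124 CPM in old and 2.69 and 7.69 CPM in young. Tyrobp, the adaptor DAP12, had 156 and 130.3 CPM in old and 107 and 83.8 CPM in young. Ctss, cathepsin S, which trims the invariant chain, had 111 and 354 CPM in old and 77.0 and 75.3 CPM in young. Fcer1g, the common Fc gamma chain, had 33.7 and 62.7 CPM in old and 17.8 and 22.4 CPM in young. Ccr2, the monocyte chemokine receptor, had 37.5 and 300.2 CPM in old and 12 and 51.6 CPM in young, and its ages overlapped. The list is not made up of monocyte genes alone, because Tyrobp, Fcer1g and Ctss are shared with dendritic and NK cells. The macrophage genes of the list were uneven, here named after their values were seen. C1qa was at 0 fragments in all libraries, Mertk at 1 and 0 in old and 0 and 0 in young, and Cd14 at 4 and 0 in old and 7 and 0 in young. The scavenger receptor Cd163, in contrast, had 101 and 64 fragments in old and 155 and 118 in young, and the endotoxin receptor Tlr4 had 70 and 50 in old and 95 and 96 in young.

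**Figure D4:**
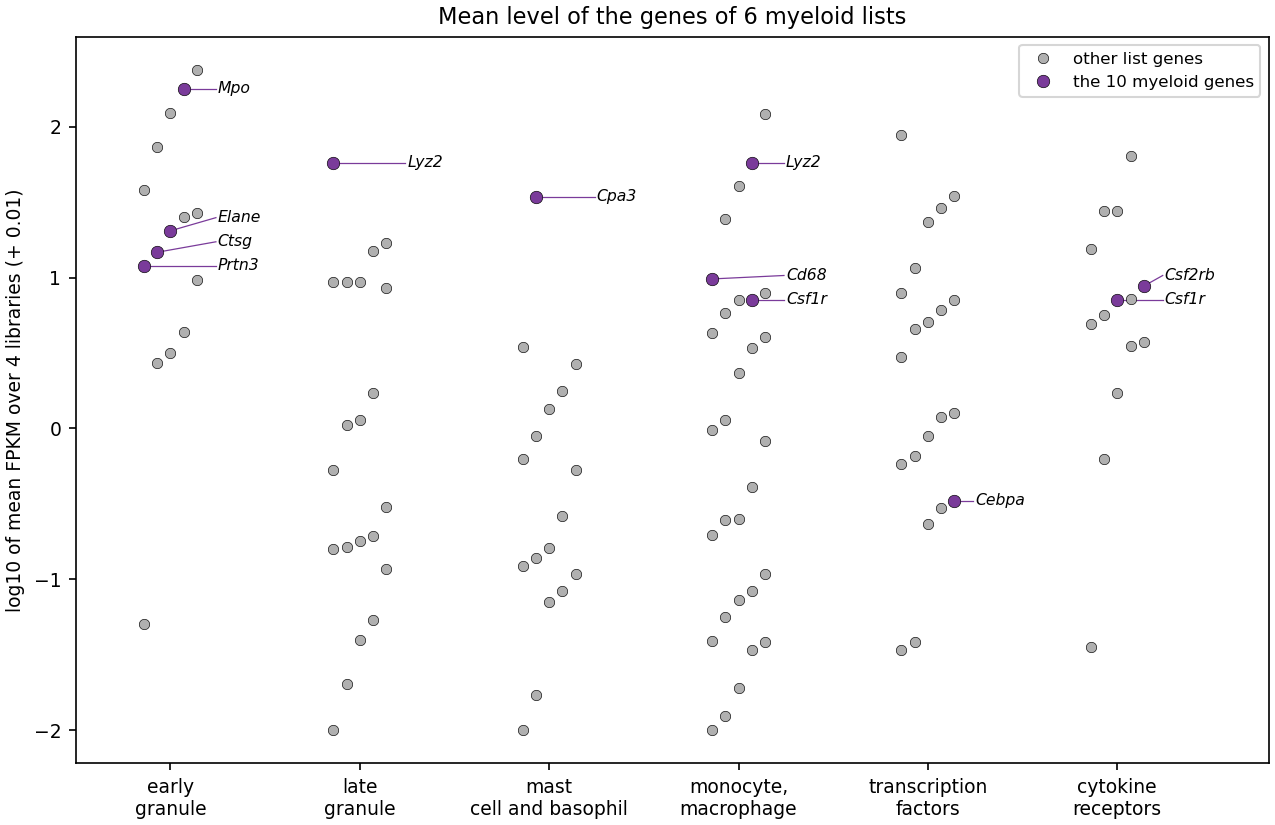
Log10 of the mean FPKM over the 4 libraries (0.01 added) for every gene with a row in 6 myeloid lists, with the 10 myeloid genes in purple. Mpo is among the top 2 of its list, while many late granule, mast cell and macrophage genes lie under 0 (a mean FPKM under 1).

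Cebpa was close to the limit of detection. Cebpa (chr7:35119293-35121928, plus strand) had 44 and 10 fragments in old and 22 and 13 in young ETP, which is 3.66 and 2.18 CPM in old and 1.29 and 2.08 CPM in young. Both old libraries were above both young ones, with old replicate 2 only slightly above young replicate 2, at counts where sampling alone moves a value widely. Fitted without the filter, its log2 fold change was 0.86 (SE 0.81), with an edgeR adjusted p of 0.999. Exons of Gm45091 overlap it on the other strand.

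The transcription factors of the myeloid program were more abundant. Of 21 genes, 13 were tested, with 8 higher and 5 lower estimates in old (median 0.52), none past edgeR's test. Myb, a progenitor factor, had 747 and 580.2 CPM in old and 923 and 1041 CPM in young, and Runx1 had 329 and 341 CPM in old and 374 and 525 CPM in young. Both were below young in both old libraries, with log2 fold changes of -0.57 and -0.42 and edgeR adjusted p of 0.999. Spi1, which encodes PU.1 and is listed in the table as Sfpi1, had 132 and 98.7 CPM in old and 77.8 and 61.3 CPM in young, a log2 fold change of 0.73 at an edgeR adjusted p of 0.897. Irf8, a monocyte and dendritic cell factor, had 277 and 865 CPM in old and 59.9 and 82.8 CPM in young, a log2 fold change of 3.0 at an edgeR adjusted p of 0.362, and Irf5, named after its values were seen, had 56.1 and 115 CPM in old and 18.1 and 17.6 CPM in young. DESeq2 called both.

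**Figure D5:**
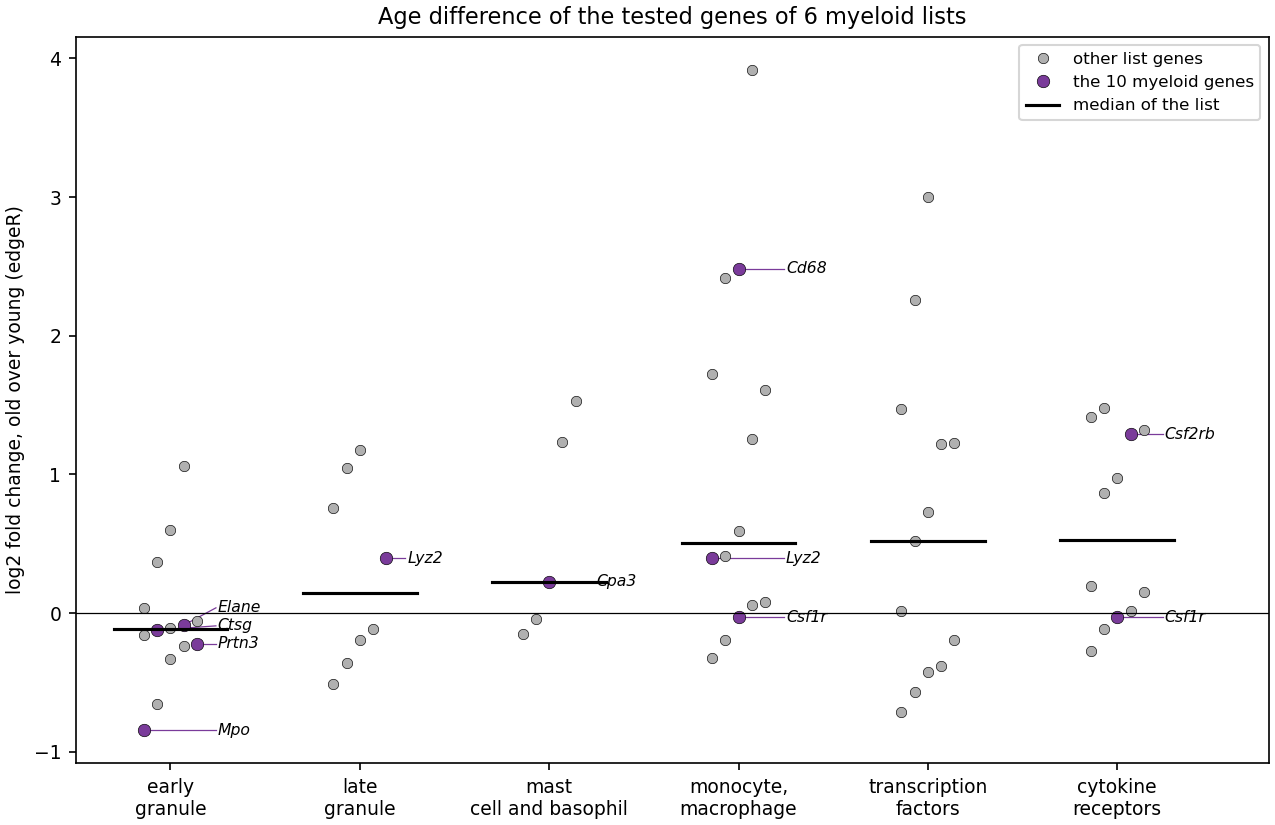
The edgeR log2 fold change, old over young, of the tested genes of 6 myeloid lists, with the median of each list as a bar. The early granule list is centred near 0, Cd68 and Irf8 lie high, and no gene shown passed edgeR's test.

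The genes most like Mpo, Cebpa and Cd68 across the 4 libraries were taken by the Euclidean distance between centred log2 CPM profiles. Nearest to Mpo were Cnn3 (distance 0.10), Igfbp4 (0.16), Sh3bp5 (0.20), Gimap9 (0.23) and Bcs1l (0.24). Nearest to Cebpa were Pisd-ps1 (0.10), Gpr25, Gramd1b, Atg2a and Bmf (0.23), and nearest to Cd68 were Pik3cb (0.21), Rab30, Ahnak, Aim1 and Ly86 (0.37). With 4 libraries such likeness is a description only.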

How the data were processed

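RNA of sorted ETP was measured in 4 libraries, 2 of old and 2 of young mice. Per the paper's methods and the submitters' processing notes, reads were aligned with STAR 2.3.0 to GRCm38 (mm10), and the notes further name HTSeq 0.5.4p3, DESeq 1.12.1, Cuffdiff and Cufflinks 2.1.1. The deposited table gives, by gene symbol, the authors' estimated counts (the fragments of each gene, with 95.7% to 96.1% of values in a library whole within 1e-06) and the authors' FPKM (fragments scaled by transcript length and depth). The authors' scaled fragment column was not used. Strand use, treatment of reads with several alignments and filters are not given in the sources used here. The table names the old condition 20m while the labels give 72 weeks, and its replicates are numbered 0 and 1, called 1 and 2 here. Which sample is which replicate within an age is not settled by the labels, and only the age was used in the tests.

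Estimated counts were rounded to whole numbers and compared with edgeR 4.0.16 under R 4.3.3 (TMM factors, a quasi-likelihood fit with age alone). P-values were adjusted by Benjamini-Hochberg over 10080 genes, those whose FPKM reached 1 in 2 or more libraries, with a threshold of 0.05. Library sizes were summed over these genes. Standard errors were derived from the F statistic. The script was tested on simulated data. Depth was 4839341 to 16658864 fragments. Alternatives were DESeq2 1.42.0, limma 3.58.1 on log2(FPKM + 1) or log2(FPKM + 0.1), RLE size factors, no filter, an FPKM of at least 5, each library left out, and the replicate number as a block.

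The 10 genes, the lists and the tests were chosen with earlier results of these data known. Named genes were the 10 members, the up to 4 other genes per pathway list and the 2 genes per marker list with the highest mean FPKM, the 5 tested genes with the profile nearest to Mpo, Cebpa and Cd68, and copies or neighbours of members. Genes named outside this rule are marked where they appear. Some marker genes that the rule names are not reported here. Gene positions are from GENCODE vM21 and promoters from RefSeq GRCm38.p6, which held 8 of the 10 genes.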

Additional observations from a re-analysis of the deposited data

How the results depend on the processing

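Counts were lowest for Cebpa and Prtn3, with as few as 10 and 9 fragments in a library. Genes called higher and lower in old ETP numbered 0 and 0 by edgeR, 210 and 15 with DESeq2, 474 and 34 with no filter on low values, and between 0 and 218 and between 0 and 3 with 1 library left out, the upper ends without old replicate 1. The causes were not tested. With the replicate number as a replicate block, edgeR called 578 and 199, Mpo passed at -0.96 (adjusted p 0.00234), Csf2rb at 1.16 (0.00895) and Cd68 at 2.42 (6.24e-05), and no other member changed its call. The labels do not tie equal numbers together, and there are only 2 pairs, so pairing is not established, although the deviations of old and young replicate 1 from their age means correlated at r = 0.734 across 10080 genes, which are not independent.

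Cd68 passed with DESeq2 (2.50) and with no filter (2.48), and Csf2rb passed with no filter (1.27). Cpa3 turned to -0.046 with limma on log2(FPKM + 1) and -0.048 on log2(FPKM + 0.1), scales on which the median of all tested genes was -0.27 and -0.327, so its place relative to other genes did not reverse. With 1 library left out, log2 fold changes ran from -1.65 to -0.35 for Mpo, -1.63 to 1.80 for Elane, -3.53 to 2.03 for Prtn3, -0.94 to 0.87 for Ctsg, -0.086 to 0.62 for Cpa3, 0.28 to 0.51 for Lyz2, -0.093 to 0.035 for Csf1r, 0.55 to 1.81 for Csf2rb, 1.63 to 3.18 for Cd68 and, without the filter, 0.38 to 1.20 for Cebpa. An FPKM of at least 5 left no value for Cebpa.

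Of the list medians with 1 library left out, the early granule list ran from -0.66 to 0.21, the late granule list from -0.024 to 0.92, the mast cell list from -0.064 to 1.09, the monocyte list from 0.36 to 0.94, the transcription factors from -0.002 to 0.91 and the receptors from 0.29 to 0.84. With an FPKM of at least 5 the medians were 0.91 for the mast cell list, 0.036 for the transcription factors and 0.22 for the receptors. With limma on log2(FPKM + 1) they were 0.24 for the monocyte list, 0.12 for the transcription factors and 0.15 for the receptors, and with log2(FPKM + 0.1) they were 0.28 for the monocyte list and 0.19 for the receptors.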
